A study of Homo sapiens with 12 samples.

Results

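The zinc finger gene cluster on the long arm of chromosome 19 was examined in H1 human embryonic stem cells (hESCs) and in the endothelial and blood cells made from them. The 33 genes were taken from a list of symbols of KRAB zinc finger genes at 19q13.41. All 33 were found among the 56266 genes of the deposited files, and all 33 were among the 21543 genes that had a TPM of 1 or more in 2 or more libraries. TPM is a transcript abundance per length, scaled to the same total in each library. They were chosen by the measured difference in TPM between genotypes in these same libraries, since an earlier scan had placed this region second among those with a difference in both of the later stages. The genotype differences below are therefore a description, with no test, while the differences between stages were tested.

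The libraries came from H1, an established hESC line, either wild type (WT) or H1-GATA2-/-, a line in which a drug-resistance cassette under the PGK promoter was inserted at GATA2 with TALENs. GATA2 encodes a transcription factor needed for early blood development. The 5 groups had 2 libraries each. They were undifferentiated GATA2-/- hESCs, hemogenic endothelium (HE, sorted as CD34+CD31+CD43- cells) at day 8 of culture on OP9 from WT and from GATA2-/- cells, and hematopoietic progenitor cells (HPCs, sorted as CD34+CD43+ cells) at day 9 from WT and from GATA2-/- cells. OP9 is a mouse bone marrow stromal line, so HEs and HPCs shared a culture that the hESCs did not. The 2 WT hESC samples were not analysed here, and hESCs therefore stand for 1 mutant line only. Nothing in the labels said that the 2 libraries of a group came from separate differentiations, so the p-values measure the spread between these libraries, which may be technical.

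The groups carry the names of their labels. GATA2 itself had a TPM of 2.05 and 5.54 in the hESC libraries labelled GATA2-/-, 106.8 and 78.03 in WT HEs, 110.93 and 94.06 in HEs labelled GATA2-/-, 290.08 and 204.17 in WT HPCs, and 112.47 and 83.82 in HPCs labelled GATA2-/-. The HE libraries of both genotypes overlapped for this gene. A value for the whole gene does not show whether a transcript runs through the inserted cassette, so it did not check the labels. Stage markers followed the stages. All 10 pluripotency genes were lower in GATA2-/- HEs than in GATA2-/- hESCs, all 12 endothelial genes were higher, and 11 of 12 blood genes were higher in HPCs than in HEs (limma, adjusted p under 0.05). In bulk RNA, fewer cells of a type and less RNA per cell cannot be told apart. The number of reads behind each TPM is unknown, since TPM keeps no depth.

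KRAB zinc finger proteins are the largest family of transcription factors in mammals. An array of C2H2 fingers, each folded around a zinc ion, reads the DNA sequence, and the KRAB domain recruits TRIM28 (KAP1), which brings the histone methyltransferase SETDB1 and heterochromatin proteins to the site. Many of these proteins bind transposable elements, and silencing of such elements in pluripotent cells is the best known role of the family. The genes arose by repeated tandem duplication, which left clusters of closely related copies, most of them on chromosome 19.

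The 33 genes lay between positions 52392488 and 53999509 of chromosome 19 in GRCh37 (hg19), from ZNF649 to ZNF813, with 13 genes on the plus strand and 20 on the minus strand. Their coding sequences, read from the GENCODE annotation, gave proteins of 462 (ZNF610) to 970 (ZNF845) residues with 7 (ZNF701) to 26 (ZNF845) C2H2 fingers and a median of 13. A pattern for the first box of the KRAB domain was found near the start of 32 proteins and was missing from that of ZNF83, so the label of KRAB gene was not met by the pattern in that 1 case. The strict form of the pattern was found in 26 proteins. It was widened after the other genes were seen to lack it. Pairs of genes that overlap on the same strand were ZNF432 and ZNF841, ZNF808 and ZNF701, ZNF28 and ZNF468, and ZNF415 and ZNF347, and reads from the shared bases of these pairs cannot be assigned to 1 gene.

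The copies were so alike that short reads could be shared. Of the 528 pairs of genes, 168 held a run of at least 36 identical coding bases, 51 held a run of at least 50, and 4 held a run of at least 100. These runs involved 31 of the 33 genes. The longest run of a gene that passed a stage test with a second such gene was that of ZNF600 and ZNF611, with 133 bases. In each of the sequences below, read 5′ to 3′ on the strand of the gene, the identical run stands in capitals and the 15 bases on either side in lower case. They are shown because a read that falls within the capitals fits both genes equally well. The ZNF600 stretch lies at chr19:53270694-53270856 and the ZNF611 stretch at chr19:53209786-53209948 of GRCh37, both on the minus strand.
ZNF600: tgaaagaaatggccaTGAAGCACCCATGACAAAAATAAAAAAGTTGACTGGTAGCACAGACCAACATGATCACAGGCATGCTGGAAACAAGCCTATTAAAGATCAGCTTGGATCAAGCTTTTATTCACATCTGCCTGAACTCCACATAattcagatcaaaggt
ZNF611: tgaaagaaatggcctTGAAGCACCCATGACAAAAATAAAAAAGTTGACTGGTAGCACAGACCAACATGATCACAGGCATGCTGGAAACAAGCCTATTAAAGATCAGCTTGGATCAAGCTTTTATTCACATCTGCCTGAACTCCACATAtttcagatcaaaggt
The longest coding run shared by ZNF845 was 92 bases, with ZNF813. It is at chr19:53854290-53854411 in ZNF845 and at chr19:53993848-53993969 in ZNF813, both on the plus strand.
ZNF845: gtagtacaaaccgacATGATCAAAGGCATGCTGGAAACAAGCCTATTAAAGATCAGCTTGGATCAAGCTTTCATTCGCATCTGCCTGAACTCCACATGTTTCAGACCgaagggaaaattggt
ZNF813: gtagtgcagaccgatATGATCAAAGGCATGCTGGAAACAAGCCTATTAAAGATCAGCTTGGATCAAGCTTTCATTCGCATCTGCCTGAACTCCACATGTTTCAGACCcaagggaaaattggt
For ZNF83 the longest run was 55 bases, with ZNF880, at chr19:53116908-53116992 on the minus strand and chr19:52887680-52887764 on the plus strand. It codes for the end of a finger, the linker that joins it to the next, and the start of that finger, which is the part that differs least among C2H2 fingers.
ZNF83: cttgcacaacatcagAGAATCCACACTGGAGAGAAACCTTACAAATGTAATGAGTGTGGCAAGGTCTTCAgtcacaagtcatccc
ZNF880: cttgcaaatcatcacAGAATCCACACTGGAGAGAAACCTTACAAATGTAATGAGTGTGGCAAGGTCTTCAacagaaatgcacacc

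Over whole genes, the share of 36-base words of the exons that also occurred in another annotated gene ranged from 1.25% in ZNF613 to 26.8% in ZNF808, with a median of 9.86%. It was under 10% in 17 genes and over 20% in 6. ZNF600 had 22.3%, ZNF611 19.5%, ZNF845 16.9% and ZNF841 11.4%, while ZNF83 had 9.86%, ZNF534 7.14% and ZNF160 4.09%. The first 4 of these genes thus share more of their exons with other genes than the last 3 do. Replicates were not farther apart in genes with more shared words. The median SD between the 2 libraries of a group was 0.41 on the log2 scale in the 17 genes under 10% and 0.37 in the other 16. This spread cannot show whether reads were assigned to the right gene, since a wrong assignment can move both replicates alike.

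Promoters of the cluster were rich in CpG. RefSeq (GRCh38.p14) gave 35 promoters for 27 of the 33 genes, each from 250 bases before to 50 bases after a start. They had a median of 24 CpG dinucleotides (range 4 to 34) and 62.3% GC, beside 14 CpG and 58.7% GC over 35116 promoters of all genes. On either strand, GGGCGG was found in 77.1% of the cluster's promoters and in 45.0% of all promoters, TATAA in 5.71% and 20.4%, and GATAA in 11.4% and 22.7%. The letters ATGGCGGC were found in 5.71% and 3.0%, and ACTACAA in 0 of the 35 and in 2.77% of all promoters. A match of letters is only a description. The promoters of ZNF83 and ZNF845 are shown because the levels of these genes moved in opposite directions between hESCs and the later stages. Over the 300 bases of their outermost RefSeq promoters, 249 bases (83.0%) were identical in an end-to-end alignment. The 250 bases before the start are given, with CpG in capitals, for ZNF83 at chr19:52690497-52690746 on the minus strand and for ZNF845 at chr19:53333499-53333748 on the plus strand of GRCh38.p14. Each holds 23 CpG dinucleotides, and their GC content is 67.2% and 66.0%.
ZNF83: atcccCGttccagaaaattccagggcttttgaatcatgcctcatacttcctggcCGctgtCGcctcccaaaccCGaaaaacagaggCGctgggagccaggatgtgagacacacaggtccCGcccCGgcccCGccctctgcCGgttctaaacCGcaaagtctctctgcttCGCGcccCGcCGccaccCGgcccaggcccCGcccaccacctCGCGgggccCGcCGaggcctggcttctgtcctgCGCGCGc
ZNF845: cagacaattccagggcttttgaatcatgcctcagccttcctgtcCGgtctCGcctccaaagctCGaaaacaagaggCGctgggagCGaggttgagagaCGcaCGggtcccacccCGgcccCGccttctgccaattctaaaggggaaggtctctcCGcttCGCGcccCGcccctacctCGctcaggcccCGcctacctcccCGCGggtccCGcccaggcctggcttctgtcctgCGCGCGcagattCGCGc

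Most of the genes were expressed at low levels. The mean TPM over the 10 libraries was under 10 in 26 genes, at least 10 in 7 and at least 20 in 3, with a median of 6.50 beside 6.94 over all tested genes. A TPM of at least 1 was reached in every library by 30 of the 33. The highest mean was that of ZNF160 (31.1) and that of ZNF83 (31.1) was almost the same, both far above the lowest, ZNF534 (0.687). Summed over the 33 genes, the TPM of a library ran from 214.99 in WT HPC replicate 2 to 366.54 in GATA2-/- HPC replicate 1, so the extremes both came from HPCs. The median SD between the replicates of a group was 0.405 on the log2(TPM + 1) scale in these genes, beside 0.364 in the 6670 genes of the same range of levels.

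**Figure D1:**
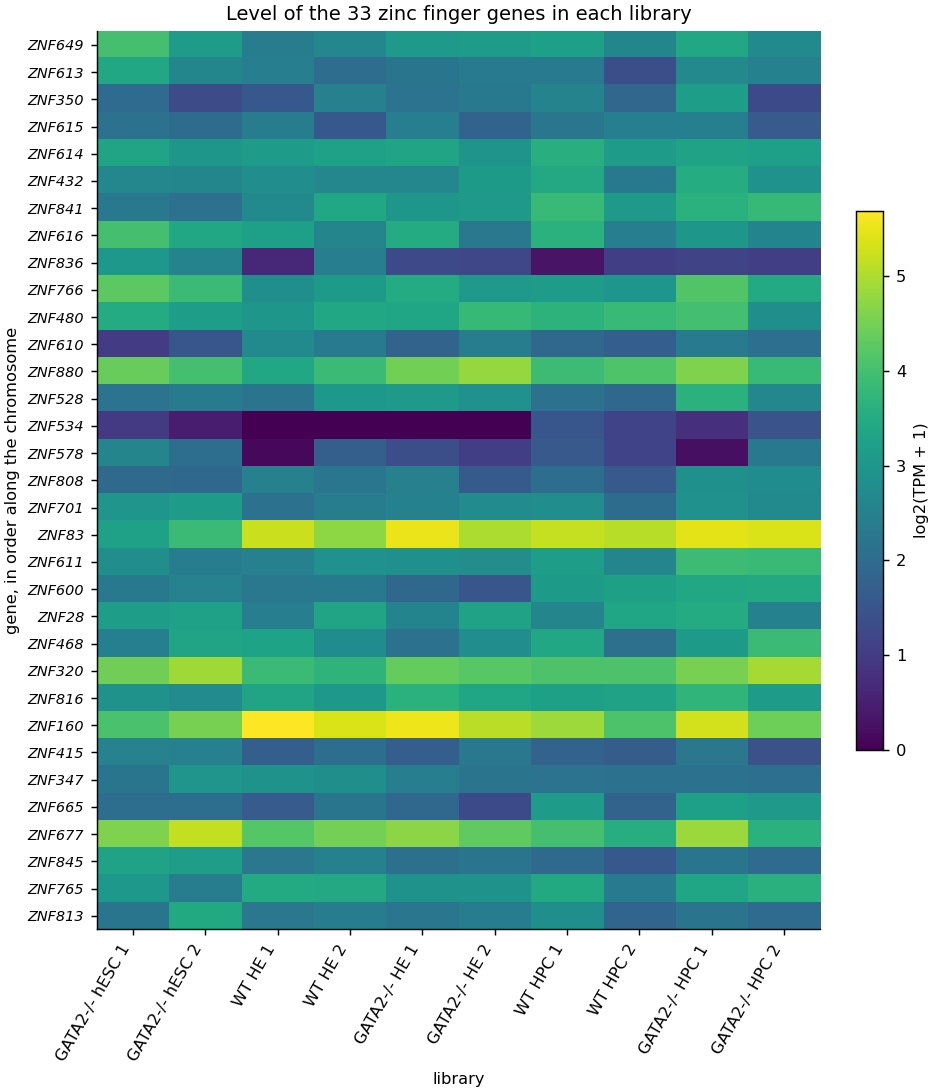
Level of each of the 33 zinc finger genes (rows, in order along the chromosome) in each of the 10 libraries (columns), as log2(TPM + 1) on the colour scale. ZNF83, ZNF160, ZNF320 and ZNF677 were bright in most libraries, ZNF534 was listed at 0 in the 4 HE libraries, and WT HPC replicate 2 was darker than WT HPC replicate 1 in 26 of 33 genes.

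The step from HE to HPC was compared over both genotypes together, a contrast that does not use the genotype difference. Of the 33 genes, 2 (6.06%) changed, both upwards, beside 20.4% of all tested genes that changed in either direction (limma on log2(TPM + 1), Benjamini-Hochberg over all tested genes, adjusted p under 0.05). ZNF534 is 1 of the 2 and reached the filter on low values through HPC libraries alone, so its test is not read. Without it, 1 of 32 genes (3.13%) changed. At an unadjusted p under 0.05, 6 of the 33 passed, beside 32.5% of all tested genes. The median difference was 0.12 on the log2 scale beside 0.01 over all tested genes, and 22 of the 33 genes had a positive difference. The share that changed was lower than among all tested genes, and this difference in shares was not tested. Among zinc finger genes elsewhere on chromosome 19 the share was 5.26% (10 of 190), and on other chromosomes 13.2% (29 of 220). The low share was thus seen in other zinc finger genes of chromosome 19 too.

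ZNF600, a KRAB zinc finger gene with 18 fingers, rose from HE to HPC. Its TPM was 3.93 and 4.75 in GATA2-/- hESCs, 3.82 and 3.94 in WT HEs, 2.73 and 1.87 in GATA2-/- HEs, 7.53 and 8.34 in WT HPCs and 9.47 and 9.9 in GATA2-/- HPCs. All 4 HPC libraries lay above all 4 HE libraries. The difference was 1.29 ± 0.21 (SE, n = 4 and 4) on the log2(TPM + 1) scale, with an adjusted p of 0.00247 in limma. Within genotypes the difference was 1.71 in GATA2-/- cells and 0.87 in WT cells, and the difference between these 2 values is that of the genotype contrasts given below. The other gene past the threshold was ZNF534, for which only the values are given. Its TPM was 0.94 and 0.36 in GATA2-/- hESCs, 0 and 0 in WT HEs, 0 and 0 in GATA2-/- HEs, 1.88 and 1.21 in WT HPCs and 0.72 and 1.76 in GATA2-/- HPCs. It was listed at 0 in all 4 HE libraries, and a TPM of 1 was reached in 3 of 4 HPC libraries and in none of the hESC libraries.

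Other genes came near the threshold without passing it. ZNF160, with 20 fingers, had a TPM of 15.6 and 22.13 in GATA2-/- hESCs, 50.61 and 40.58 in WT HEs, 45.58 and 33.49 in GATA2-/- HEs, 27.82 and 16.24 in WT HPCs and 38.68 and 20.53 in GATA2-/- HPCs. Its 3 highest values came from HEs, though GATA2-/- HPC replicate 1 lay within their range, and its difference from HE to HPC was -0.76 (adjusted p 0.0706, limma). ZNF665 had a TPM of 3.17 and 3.14 in GATA2-/- hESCs, 2.12 and 3.6 in WT HEs, 2.77 and 1.41 in GATA2-/- HEs, 7.75 and 2.52 in WT HPCs and 8.29 and 7.42 in GATA2-/- HPCs, and its difference was 1.05 (adjusted p 0.058). WT HPC replicate 2 lay within the range of the HEs for ZNF665, whereas the other 3 HPC libraries lay above it. Blood markers summed to a TPM of 85.11 to 313.6 in HEs and 3876.94 to 7598.45 in HPCs, endothelial markers to 4035.36 to 4956.5 and 1025.74 to 1345.54, and stromal markers to 499.47 to 792.64 and 122.06 to 268.16. The part of these changes in the cell mixture in the levels of the zinc finger genes was not tested.

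When the genotypes were taken apart, 0 of the 33 genes passed from HE to HPC in WT cells in limma (9.91% of all tested genes did). At an unadjusted p under 0.05, 3 of the 33 passed in WT cells, beside 22.4% of all tested genes. In GATA2-/- cells 1 of the 33 passed, ZNF600, beside 12.7% of all tested genes. Each of these contrasts rests on 2 libraries against 2 and contains the genotype difference by which the genes were chosen, so nothing is read from either count.

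Against hESCs, the clearest change was that of ZNF83, the gene in which the KRAB pattern was not found. It was higher in GATA2-/- HEs by 1.68 ± 0.28 (SE, n = 2 and 2; adjusted p 0.00232) and in GATA2-/- HPCs by 1.84 ± 0.28 (adjusted p 0.00143, limma). Its TPM was 8.6 and 13.78 in GATA2-/- hESCs, 36.35 and 25.43 in WT HEs, 44.91 and 30.7 in GATA2-/- HEs, 35.77 and 32.59 in WT HPCs and 42.96 and 40.11 in GATA2-/- HPCs. Both hESC libraries lay below all 8 others. The WT libraries, set against the same GATA2-/- hESCs, gave 1.40 in HEs and 1.56 in HPCs. Both GATA2-/- HPC libraries lay above both WT HPC libraries, so the HPC test holds the genotype difference that chose the genes. The HPC test of ZNF83 is therefore not read. ZNF83 kept an adjusted p under 0.05 with any 1 library left out, whereas in a fit of the libraries of the HE comparison alone it was 0.0534.

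ZNF845, the gene with the most fingers, fell. It was lower by 1.08 ± 0.31 (SE) in GATA2-/- HEs (adjusted p 0.0296) and by 1.12 ± 0.31 in GATA2-/- HPCs (adjusted p 0.0252, limma) on the log2 scale. Its TPM was 8.66 and 8.01 in GATA2-/- hESCs, 3.81 and 4.66 in WT HEs, 3.28 and 3.56 in GATA2-/- HEs, 2.86 and 1.96 in WT HPCs and 3.63 and 2.99 in GATA2-/- HPCs. In the WT libraries the differences from the same hESCs were -0.84 in HEs (adjusted p 0.0768, limma) and -1.46 in HPCs (adjusted p 0.00759). The first of these did not pass. Both GATA2-/- HE libraries lay below both WT HE libraries, so the HE test holds the genotype difference that chose the genes. In HPCs both GATA2-/- libraries lay above both WT libraries, so the HPC test holds it too. Neither test is therefore read. Both hESC libraries lay above all 8 others. Its call was lost in either comparison when any 1 library of the 2 groups compared was left out, with adjusted p up to 0.114 in HEs and 0.0903 in HPCs.

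In GATA2-/- HEs these 2 genes were the only ones of the 33 (6.06%) that passed, 1 in each direction, beside 30.0% of all tested genes. The 2 include ZNF845, whose HE test is not read, so this is not a count of changed genes. The median difference of the 33 was -0.28 beside -0.02 over all tested genes, 14 genes had a positive and 19 a negative difference, and 8 had an unadjusted p under 0.05, beside 40.0% of all tested genes. In GATA2-/- HPCs 5 of the 33 (15.2%) passed, 4 upwards and 1 downwards, beside 30.6% of all tested genes, with a median of 0.06 beside 0. The 5 include ZNF611 and ZNF600, for which no test is given below, and ZNF83 and ZNF845, whose HPC tests are not read. The count is therefore not read as that many changed genes. Both comparisons share the hESC libraries, and the HE and HPC libraries had entered the choice of the genes. A gene picked for its level in GATA2-/- cells carries that level into these comparisons, so the difference in WT cells is given beside it.

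ZNF841, ZNF611 and ZNF600 were the other genes past the threshold in GATA2-/- HPCs, with higher values there. ZNF841 had a TPM of 3.91 and 3.33 in GATA2-/- hESCs, 5.64 and 9.53 in WT HEs, 7.11 and 7.27 in GATA2-/- HEs, 13.54 and 7.46 in WT HPCs and 11.45 and 12.96 in GATA2-/- HPCs. Its HPC difference was 1.52 ± 0.35 (SE, adjusted p 0.011, limma), it was 1.27 in WT HPCs, and in GATA2-/- HEs it was 0.83 (adjusted p 0.111). ZNF611 had a TPM of 6.12 and 4.26 in GATA2-/- hESCs, 4.54 and 6.31 in WT HEs, 6.23 and 5.97 in GATA2-/- HEs, 7.99 and 5 in WT HPCs and 14.04 and 13.37 in GATA2-/- HPCs. Both GATA2-/- HPC libraries stood above the other 8, and the difference from hESCs was 1.26 ± 0.32 (SE). Against the same hESCs the difference was 0.26 in WT HPCs, whose values overlapped those of the hESCs. The value of ZNF611 in GATA2-/- HPCs thus rests on the genotype difference that chose the genes, and no test is given. ZNF600, whose values stand above, had a difference of 1.00 ± 0.29 (SE) in GATA2-/- HPCs and of 0.75 in WT HPCs, which did not pass, and no test is given for it either. The calls in HPCs, apart from that of ZNF83, were lost in some fits that left out 1 library of the 2 groups compared. Fewer of all tested genes passed in those fits too. With a library left out, the HPC difference lay between 1.52 and 2.15 for ZNF83 and between 1.42 and 1.61 for ZNF841. It lay between 1.05 and 1.48 for ZNF611 and between 0.89 and 1.12 for ZNF600. In a fit of only the libraries compared, ZNF83 and ZNF841 passed, beside 4386 of 21543 tested genes in place of 6586.

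**Figure D2:**
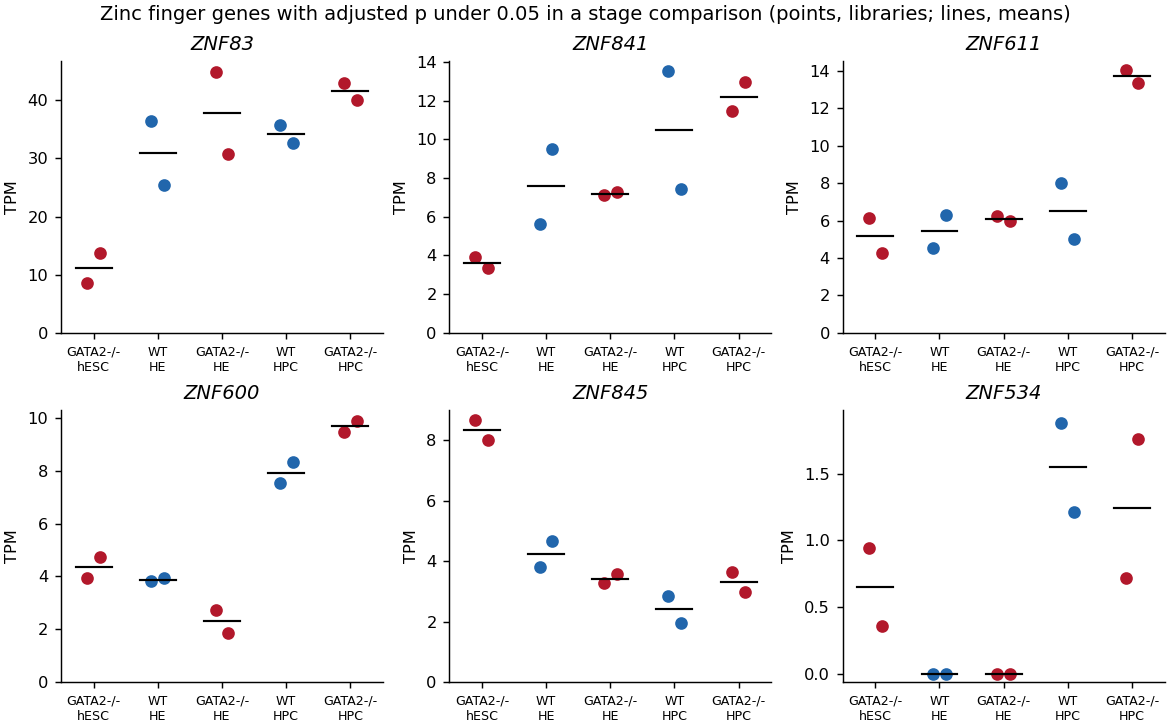
TPM (vertical axis, starting at or just below 0, a scale for each panel) of the 6 zinc finger genes with an adjusted p under 0.05 in any of the 3 stage comparisons, by group; points are single libraries (red, GATA2-/-; blue, WT) and lines are means of 2. ZNF83 was lower in hESCs than in all other libraries, ZNF845 was higher there, ZNF600 was higher in the 4 HPC libraries than in the 4 HE libraries, and ZNF534 was at 0 in HEs.

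Further genes had large differences from hESCs without passing in GATA2-/- cells. ZNF836 had a TPM of 7.16 and 4.85 in GATA2-/- hESCs, 0.54 and 4.42 in WT HEs, 1.37 and 1.3 in GATA2-/- HEs, 0.23 and 1.08 in WT HPCs and 1.23 and 1.09 in GATA2-/- HPCs. WT HE replicate 2 stood close to the hESCs and apart from WT HE replicate 1, and the differences were -1.57 in GATA2-/- HEs (adjusted p 0.0736) and -1.68 in GATA2-/- HPCs (adjusted p 0.057, limma). ZNF578 had a TPM of 5.03 and 3.14 in GATA2-/- hESCs, 0.09 and 2.29 in WT HEs, 1.58 and 1.09 in GATA2-/- HEs, 2.02 and 1.2 in WT HPCs and 0.17 and 3.92 in GATA2-/- HPCs, with values as far apart as 0.09 and 2.29 in the replicates of WT HEs. ZNF610 had a TPM of 1.03 and 1.87 in GATA2-/- hESCs, 5.48 and 4.09 in WT HEs, 2.51 and 4.27 in GATA2-/- HEs, 2.72 and 2.24 in WT HPCs and 4.18 and 3.2 in GATA2-/- HPCs. Both hESC libraries of ZNF610 lay below the others, and the differences were 0.83 in GATA2-/- HEs and 0.95 in GATA2-/- HPCs (adjusted p 0.132 and 0.0879, limma). ZNF528 had a TPM of 3.47 and 4.15 in GATA2-/- hESCs, 3.56 and 7.15 in WT HEs, 7.37 and 6.3 in GATA2-/- HEs, 3.35 and 2.78 in WT HPCs and 11.36 and 5.19 in GATA2-/- HPCs. ZNF816 had a TPM of 6.5 and 5.68 in GATA2-/- hESCs, 9.08 and 7.17 in WT HEs, 11.37 and 9.34 in GATA2-/- HEs, 8.45 and 8.77 in WT HPCs and 12.23 and 7.77 in GATA2-/- HPCs, and its hESC values lay below the rest. ZNF766 had a TPM of 18.11 and 13.77 in GATA2-/- hESCs, 6.08 and 7.53 in WT HEs, 10.38 and 7.33 in GATA2-/- HEs, 7.9 and 6.97 in WT HPCs and 16.57 and 10.19 in GATA2-/- HPCs. Both hESC libraries of ZNF766 were higher than both GATA2-/- HE libraries, with a difference of -0.79 (adjusted p 0.0937, limma).

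Replicates of the remaining genes of this kind were often far apart. ZNF616 had a TPM of 15.23 and 9.63 in GATA2-/- hESCs, 8.32 and 5.03 in WT HEs, 10.31 and 3.86 in GATA2-/- HEs, 11.48 and 4.37 in WT HPCs and 7.1 and 4.89 in GATA2-/- HPCs. ZNF613 had a TPM of 9.41 and 5.15 in GATA2-/- hESCs, 4.43 and 3.08 in WT HEs, 3.6 and 4.1 in GATA2-/- HEs, 4.07 and 1.59 in WT HPCs and 5.39 and 4.67 in GATA2-/- HPCs. Their replicates in hESCs alone spanned 9.63 to 15.23 and 5.15 to 9.41. ZNF813 had a TPM of 3.64 and 9.98 in GATA2-/- hESCs, 3.74 and 4.33 in WT HEs, 3.67 and 4.33 in GATA2-/- HEs, 6.14 and 2.62 in WT HPCs and 3.59 and 2.99 in GATA2-/- HPCs, so that hESC replicate 2 stood apart from hESC replicate 1. ZNF415 had a TPM of 4.75 and 4.54 in GATA2-/- hESCs, 2.32 and 3.17 in WT HEs, 2.31 and 3.85 in GATA2-/- HEs, 2.49 and 2.21 in WT HPCs and 3.74 and 1.64 in GATA2-/- HPCs, and both its hESC values lay above all others.

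Set against the same hESCs, WT HEs had 5 of the 33 genes past the threshold, beside 28.8% of all tested genes. ZNF83 (1.40), ZNF160 (1.24) and ZNF610 (1.25) were higher, and ZNF320 (-0.88) and ZNF766 (-1.11) lower. WT HPCs also had 5, beside 30.0% of all tested genes, with ZNF83 (1.56) and ZNF841 (1.27) higher and ZNF845 (-1.46), ZNF836 (-2.11) and ZNF766 (-0.996) lower. These contrasts compare different genotypes as well as different stages, which cannot be told apart here, and their difference from the GATA2-/- contrasts was not tested. They hold the genotype difference that chose the genes. Both GATA2-/- HPC libraries lay above both WT HPC libraries for ZNF83, ZNF845, ZNF836 and ZNF766, and ZNF320 had such a difference in HEs. Nothing is therefore read from either count.

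Protein-coding genes that lie in or reach into the same span and are not on the list included ZNF525 and ZNF577. ZNF525 had a TPM of 23.95 and 20.92 in hESCs and of 4.80 to 5.79 in the 4 HE libraries, a difference of -1.93 in GATA2-/- HEs (adjusted p 0.0014, limma). Of the 7 such genes, 3 fell in GATA2-/- HEs against hESCs and 0 rose in limma (42.9% against the 30.0% of all tested genes). Among zinc finger genes elsewhere on chromosome 19, 9 of 190 rose and 16 fell in that comparison (13.2%), and on other chromosomes 33 of 220 rose and 21 fell (24.5%). In GATA2-/- HPCs against hESCs, 18 of the 190 (9.47%) and 49 of the 220 (22.3%) passed.

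The partners that carry out KRAB repression were read from a list of 26 genes, 25 of them tested. In GATA2-/- HEs against hESCs, 1 rose and 6 fell (28%, beside 30.0% of all tested genes). TRIM28, the KRAB binding partner, fell by 0.66 (adjusted p 0.0349, limma) on the log2 scale, and ATF7IP, the cofactor of SETDB1, fell by 1.09 (adjusted p 0.0161). DNMT3B, the de novo DNA methyltransferase of pluripotent cells, fell by 3.36, and CHD3, a remodelling subunit, rose by 2.16. In GATA2-/- HPCs 6 of the 25 rose and 5 fell (44%, beside 30.6%), with SETDB1 higher by 0.90 (adjusted p 0.00802) and MPHOSPH8, a subunit of the HUSH silencing complex, by 1.07 (adjusted p 0.0167, limma). EHMT1, a histone methyltransferase, had a difference of -0.81 (adjusted p 0.0142). From HE to HPC 2 rose and 1 fell (12%, beside 20.4%), namely PPHLN1 (0.92), TRIM33 (0.90) and CBX1 (-0.76).

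The genotype difference, for which the region had been picked, was small in HEs and larger in HPCs. The median over the 33 genes of the value in cells labelled GATA2-/- minus that in WT cells was 0.05 in HEs, with 19 genes positive, and 0.27 in HPCs, with 25 genes positive, on the log2(TPM + 1) scale. Over all tested genes the medians were -0.01 and 0.05. In HEs, 5 of the 33 genes had both GATA2-/- libraries above both WT libraries (ZNF880, ZNF320, ZNF701, ZNF649 and ZNF816), beside 13.8% of all tested genes, and 4 had both below (ZNF845, ZNF765, ZNF600 and ZNF347), beside 16.5%. In HPCs 11 had both above (ZNF528, ZNF611, ZNF320, ZNF766, ZNF613, ZNF808, ZNF83, ZNF836, ZNF845, ZNF610 and ZNF600), beside 19.7%, and 0 had both below, beside 13.0%. ZNF845 and ZNF600 had non-overlapping libraries at both stages in opposite directions, as did 4.17% of all tested genes. Since this difference chose the genes, nothing is read from these counts.

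ZNF320 was the 1 gene of the 33 with both GATA2-/- libraries above both WT libraries at both stages, beside 3.37% of all tested genes. Its TPM was 20.97 and 28.42 in GATA2-/- hESCs, 13.75 and 12 in WT HEs, 19.33 and 17.6 in GATA2-/- HEs, 16.17 and 16.09 in WT HPCs and 22.15 and 29.45 in GATA2-/- HPCs. The difference was 0.49 in HEs and 0.63 in HPCs. ZNF880 had the largest difference in HEs, 0.99, and its TPM was 19.65 and 15.21 in GATA2-/- hESCs, 9.65 and 13.7 in WT HEs, 21.31 and 26.71 in GATA2-/- HEs, 13.99 and 16.37 in WT HPCs and 23.03 and 13.46 in GATA2-/- HPCs. In HPCs its libraries overlapped. ZNF528 had the largest in HPCs, 1.11, with both GATA2-/- values above both WT values. The genes with both GATA2-/- HE libraries below the WT ones included ZNF765, with a TPM of 7.18 and 4.27 in GATA2-/- hESCs, 10.06 and 9.77 in WT HEs, 6.45 and 6.62 in GATA2-/- HEs, 9.95 and 4.19 in WT HPCs and 9.13 and 11.24 in GATA2-/- HPCs, and ZNF347, with a TPM of 3.65 and 6.86 in GATA2-/- hESCs, 6.43 and 6.16 in WT HEs, 4.43 and 3.59 in GATA2-/- HEs, 3.48 and 3.37 in WT HPCs and 3.41 and 3.2 in GATA2-/- HPCs. Their differences in HEs were -0.53 and -0.55. In HPCs ZNF765 had a difference of 0.56 with overlapping libraries, and ZNF347 one of -0.04.

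**Figure D3:**
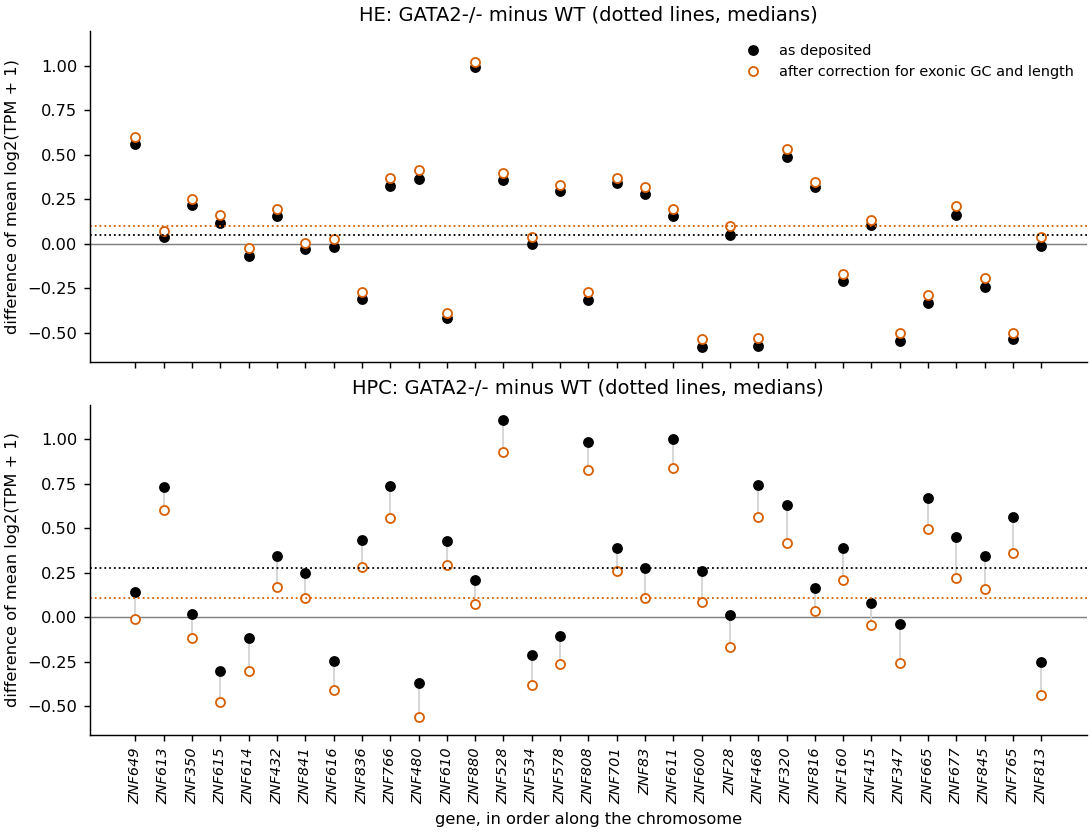
Difference between GATA2-/- and WT in mean log2(TPM + 1) for each of the 33 genes in order along the chromosome, in HEs (top) and HPCs (bottom). Filled points are the deposited values, open points the values after correction for exonic GC and length, and dotted lines the medians, which were 0.05 and 0.10 in HEs and 0.27 and 0.11 in HPCs.

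The HPC difference was not the same in all pairs of libraries. Its median was 0.30 for GATA2-/- replicate 1 against WT replicate 1 and 0.32 for replicate 2 against replicate 2, but 0.59 for GATA2-/- replicate 1 against WT replicate 2 and -0.06 for GATA2-/- replicate 2 against WT replicate 1. The replicates themselves differed by 0.46 in WT HPCs and by 0.20 in GATA2-/- HPCs, replicate 1 being higher in both. Without WT HPC replicate 2 the median fell from 0.27 to 0.02, and without GATA2-/- HPC replicate 2 it was 0.48. The difference between replicates of WT HPCs was thus larger than the difference between genotypes. In the file headers, replicates 2 of the HE and HPC groups carry a suffix that replicates 1 lack, and its meaning is not given in the sources used here. In HEs the pairs gave -0.04 to 0.27, and without WT HE replicate 1 the median was -0.06. Blood markers in HEs summed to 230.36 and 313.6 in WT and to 85.11 and 169.01 in GATA2-/- cells, and their part in the HE values was not tested.

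GC content moved with the genotype difference in HPCs. The exons of the 33 genes had a median GC content of 42.9% (37.9% to 46.9%) beside 48.4% over all tested genes with a value, and all 33 lay below that median. In order from the lowest decile of GC content, deciles 1 to 5 held 1, 8, 12, 11 and 1 of the genes. Over all tested genes, the median HPC difference went from 0.22 in the lowest decile to -0.13 in the highest, whereas in HEs the deciles ran from -0.04 to 0. Exons were also longer, with a median of 5986 bases per gene beside 4024.

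After each library was corrected for exonic GC and length, the median HPC difference of the 33 genes was 0.11, with 21 positive, in place of 0.27 with 25 positive. In HEs it was 0.10 in place of 0.05. Both GATA2-/- libraries lay above both WT libraries in 8 genes in HPCs and in 5 in HEs after correction, beside 16.5% and 16.7% of all genes. Other zinc finger genes of chromosome 19 had an exonic GC median of 43.7% and HPC medians of 0.14 before and -0.002 after correction, and those of other chromosomes 45.9%, 0.11 and 0.002. Within the cluster, the 16 genes with at least 10% shared words had an HPC median of 0.37 before correction and the 17 others one of 0.14. In HEs the order was the other way, with medians of -0.02 and 0.12. Since this difference chose the genes, nothing is read from the split. ZNF528 (0.93), ZNF611 (0.84) and ZNF808 (0.83) had the largest HPC values after correction. How much of the difference in HPCs belongs to GC content was not tested.

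At the edges of the list, ZNF649 (0.56 in HEs and 0.14 in HPCs) was the first gene on the list, and ZNF577 (0.15 and -0.01), which starts before it and overlaps it, the nearest gene not on it. At the other end ZNF813 (-0.01 and -0.25) was the last on the list and ZNF331 (0.47 and 0.47) the next beyond it. The 7 protein-coding genes in or reaching into the span that are not on the list, ZNF577 among them, had median genotype differences of -0.09 in HEs and -0.14 in HPCs. They include other genes with ZNF symbols, namely ZNF577, ZNF525, ZNF761 and ZNF888. ZNF888, VN1R2 and CTD-3099C6.9 were low, with a mean TPM of at most 2.61 in any group.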

How the data were processed

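RNA was measured by single-end RNA-Seq in 10 libraries, 2 per group. Per the study's methods, the authors trimmed reads with Trimmomatic and mapped them to hg19 with Bowtie. RSEM is also named in the submitters' processing notes, with no role given. The deposited values are TPM for 56266 genes. Differences in log2(TPM + 1) were fitted by limma (version 3.58.1, R 4.3.3) with all 5 groups in 1 model and a variance trend, for the 21543 genes that reached a TPM of 1 in 2 or more libraries, with Benjamini-Hochberg adjustment. A fold of a low gene is understated on this scale. The zinc finger genes and lists were chosen with earlier results of these data known. Values in every library were given for genes that passed the HPC against HE test, the 6 largest rises and falls against hESCs, genes whose genotypes did not overlap in both stages or were lower in 1, and the highest and lowest genes. ZNF525, ZNF577, ZNF880, ZNF665 and ZNF528 were also named after their values were seen, as were the genes of the KRAB repression list. Exonic GC, length and 36-base words came from GENCODE v44 lifted to GRCh37 (20557 genes, 95.4%). The GC and length correction was a loess with a span of 0.5. On simulated data with 200 changed genes the test called 186 of them and 8 others for HPC against HE. How often the test would call differences as small as those of most of the zinc finger genes, at their levels, was not tested. Alternatives were other pseudocounts, filters, scalings, fits and left-out libraries.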

Additional observations from a re-analysis of the deposited data

Results flagged for a closer look

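Genotype differences of opposite sign at the 2 stages were seen in 2 genes whose GATA2-/- and WT libraries did not overlap at either stage. ZNF845 had a difference (GATA2-/- minus WT, log2(TPM + 1)) of -0.24 in HEs and 0.35 in HPCs. ZNF600 had one of -0.58 in HEs and 0.26 in HPCs. In each case both GATA2-/- libraries lay below both WT libraries in HEs and above both in HPCs. After correction for exonic GC and length, ZNF845 had -0.19 in HEs and 0.16 in HPCs, and ZNF600 had -0.54 and 0.09. Among all tested genes, 4.17% had non-overlapping genotypes at both stages in opposite directions, beside 2 of these 33, and nothing is read from this count. The difference between stages was not tested, since the genes were chosen for their genotype difference.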

How the results depend on the processing

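Of the 28 stage differences of named genes that were recomputed in the 3 comparisons, 0 turned sign under the alternatives run. From HE to HPC, 2 of the 33 genes passed, and 5 did with the GC and length correction, 4 with that correction and the replicate block, 4 with TPM rescaled to nuclear protein-coding genes, 0 in WT libraries only and 1 in GATA2-/- libraries only (limma). Of all tested genes, 4395 of 21543 passed, 4864 of 20557 with the correction, 4931 of 20557 with the block as well and 4530 of 14964 with the rescaled TPM. In WT libraries 2134 of 21543 passed and in GATA2-/- libraries 2745. ZNF600 and ZNF534 were among those called in each of the fits of all 10 libraries, and ZNF534, whose test is not read, is counted in each. With a library left out, the difference of ZNF600 lay between 1.19 and 1.38. For GATA2-/- HEs against hESCs the 2 calls became 1 with only the libraries compared (ZNF836 in place of ZNF83 and ZNF845), 4 with the GC and length correction, 4 with that and the replicate block, 4 with the rescaled TPM, and 5 with WT HEs in their place. Of all tested genes, 6462 of 21543 passed, and 5055 of 21543 with only the libraries compared. The counts were 6830 of 20557 with the correction, 6879 of 20557 with the block as well and 6377 of 14964 with the rescaled TPM. With WT HEs 6208 of 21543 passed. With a library left out, the difference of ZNF83 lay between 1.37 and 1.99. The call of ZNF845, whose test is not read, was lost without any 1 library of the groups compared, and that of ZNF83 was not. For GATA2-/- HPCs against hESCs the 5 calls became 2 with only the libraries compared, and 1 to 6 with a library left out. A group left with 1 library was assumed to vary like the others. Among genes with under 10% shared words, a restriction chosen after seeing the data like the use of WT HEs and WT HPCs, each of the 3 comparisons had 1 call, which was ZNF534 from HE to HPC. The replicate numbers are not said to mark a shared batch. With the replicate block alone, 3, 3 and 5 of the 33 genes passed, beside 4688, 6803 and 6924 of 21543 tested genes. Replicate deviations correlated across genes at 0.123 between genotypes in HEs and 0.055 in HPCs. With a library left out, the genotype median lay between -0.06 and 0.12 for HEs, and between 0.02 and 0.48 for HPCs. Depth is unknown, which limits what can be said of low genes such as ZNF534.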
